A study of Mus musculus with 12 samples.

Results

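Mast cell genes were followed in the back skin of mice with imiquimod (IMQ) dermatitis, a psoriasis-like inflammation raised by a cream that activates Toll-like receptor 7. The 10 genes were listed by name: the chymases *Cma1* and *Mcpt4*, the tryptases *Tpsb2* and *Tpsab1*, the carboxypeptidase *Cpa3*, the IgE receptor chains *Fcer1a* and *Ms4a2*, the histamine-forming enzyme *Hdc* and the receptors *Mrgprb1* and *Mrgprb2*. All 10 were among the 56923 genes of the count table, and all 10 passed the filter on low counts that left 18529 genes for testing. The question put to them was how they responded to IMQ in wild-type (WT) mice and in mice labelled *Lcn2*-/-.

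Bulk RNA-seq was read from 12 libraries of skin, 3 in each of 4 groups. All mice were female, aged 8 to 10 weeks, with shaved backs. WT control and WT IMQ mice were littermates of the *Lcn2*-/- line, which was on a C57BL/6 background and came from a commercial breeder, and the other groups were control and IMQ mice labelled *Lcn2*-/-. IMQ mice received 5% IMQ cream and control mice the vehicle, Vaseline, every day for 6 days. The repository's sample labels call the genotype a knockdown, call the treatment of the controls none, and number the libraries of a group without naming the animal, so p-values measure the spread between these libraries. Reads of *Lcn2* were present despite the genotype label. The mice labelled *Lcn2*-/- still had 320, 173 and 357 counts of it without IMQ and 561, 511 and 830 counts with IMQ, where WT mice had 86 to 201 and 1010 to 2723 counts. Counts per gene cannot tell reads of an intact *Lcn2* from reads of parts left by a targeted allele. The study lists *Lcn2* among the genes that were lower in *Lcn2*-/- than in WT skin after IMQ. The groups are therefore called by their label throughout. Library totals lay between 16448226 and 28592110 counts, and a gene at the floor of 3 counts stood at 0.105 to 0.182 CPM, counts scaled to the size of the library. The extraction protocol in the labels speaks of retinas, but the summed level of 6 retina markers was 0.0672 to 2.42 CPM. Of these 6, 1 passed the filter, and the photoreceptor transcription factors *Crx* and *Nrl* had 0 counts in every library. The summed keratinocyte markers reached 6460 to 45090 CPM.

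Mast cells of connective tissue sit around vessels and nerves of the dermis and store their mediators in granules. Chymases, tryptases and carboxypeptidase A3 are the granule proteases, packed on heparin together with histamine. The cells fire when antigen crosslinks IgE on the high-affinity receptor, whose alpha chain binds IgE and whose beta chain amplifies the signal, or when cationic peptides and drugs act on Mrgprb2. Each of the 10 genes is used as a marker of these cells, but *Hdc* is also read in neutrophils and basophils, and *Fcer1a* in basophils. In bulk skin, fewer mast cells and less RNA per mast cell cannot be told apart.

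Because the tryptases, the chymases and the Mrgprb receptors are each a family of related genes, the coding sequences were compared before their counts. *Tpsb2* (chromosome 17, 25366305 to 25369098, plus strand, GRCm38) and *Tpsab1* (chromosome 17, 25343245 to 25345562, minus strand) were identical at 77.1% of aligned coding bases, and their longest identical run was 39 bases, shorter than a read of 150 bp. The stretches below are the 90 coding bases where the tryptases are most alike, with the 6 differing bases in capitals. They show how a read from either gene can be placed.
*Tpsb2*: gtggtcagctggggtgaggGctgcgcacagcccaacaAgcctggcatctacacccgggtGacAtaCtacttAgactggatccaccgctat
*Tpsab1*: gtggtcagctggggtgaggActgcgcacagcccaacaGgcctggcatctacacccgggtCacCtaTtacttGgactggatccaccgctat

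*Mrgprb1* (chromosome 7, 48444113 to 48456342, minus strand) and *Mrgprb2* (chromosome 7, 48550965 to 48558086, minus strand) were identical at 73.8% of aligned coding bases, with a longest run of 25. Their most alike 90 bases differ at 9 positions, given in capitals.
*Mrgprb1*: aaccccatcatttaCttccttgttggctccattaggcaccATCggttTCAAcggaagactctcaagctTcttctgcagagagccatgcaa
*Mrgprb2*: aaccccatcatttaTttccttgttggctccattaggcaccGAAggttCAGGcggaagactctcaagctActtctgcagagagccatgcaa

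*Cma1* (chromosome 14, 55941451 to 55944675, minus strand) and *Mcpt4* (chromosome 14, 56059629 to 56062313, minus strand) shared 71.3% of aligned coding bases and a longest run of 27. Over all annotated transcripts, none of the 75-base windows of *Tpsb2*, *Tpsab1*, *Cpa3*, *Fcer1a*, *Hdc*, *Mrgprb1* or *Mrgprb2* occurred in another gene. The shared windows were 1.67% for *Cma1* (with *Gm48934*), 2.51% for *Mcpt4* (with *Cma2*) and 1.23% for *Ms4a2* (with *Ms4a4b*), so a small part of the reads of these 3 genes could have been split by the authors' counting. No exon of the 10 genes overlapped another gene.

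Levels between genes were compared per kilobase of exon. In WT control skin *Mcpt4* led at 104 ± 19.2 CPM per kilobase (mean ± SD, n = 3), followed by *Cma1* at 54.3 ± 9.6, *Cpa3* at 52.1 ± 15.1 and *Tpsb2* at 24.6 ± 5.07. *Cma1* and *Cpa3* did not differ beyond their spread. A gap then separated the granule proteases from *Mrgprb2* at 3.13 ± 0.319, *Mrgprb1* at 2.89 ± 1.11, *Hdc* at 2.13 ± 0.481, *Fcer1a* at 2.13 ± 1.11 and *Ms4a2* at 2.07 ± 0.532 CPM per kilobase, 5 genes whose neighbours overlapped. *Tpsab1* was lowest at 0.369 ± 0.242, in a strain background known for a disrupted splice site in this gene. After IMQ the upper part of the order kept *Mcpt4* first, at 98.7 ± 16.1 CPM per kilobase in WT and 157 ± 15 in mice labelled *Lcn2*-/-. *Hdc* then stood above *Mrgprb1*, *Mrgprb2* and *Ms4a2*, at 8.59 ± 2.35 and 10.3 ± 3.02 CPM per kilobase, beside *Fcer1a* at 7.6 ± 3.28 and 11.8 ± 2.86.

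**Figure D1:**
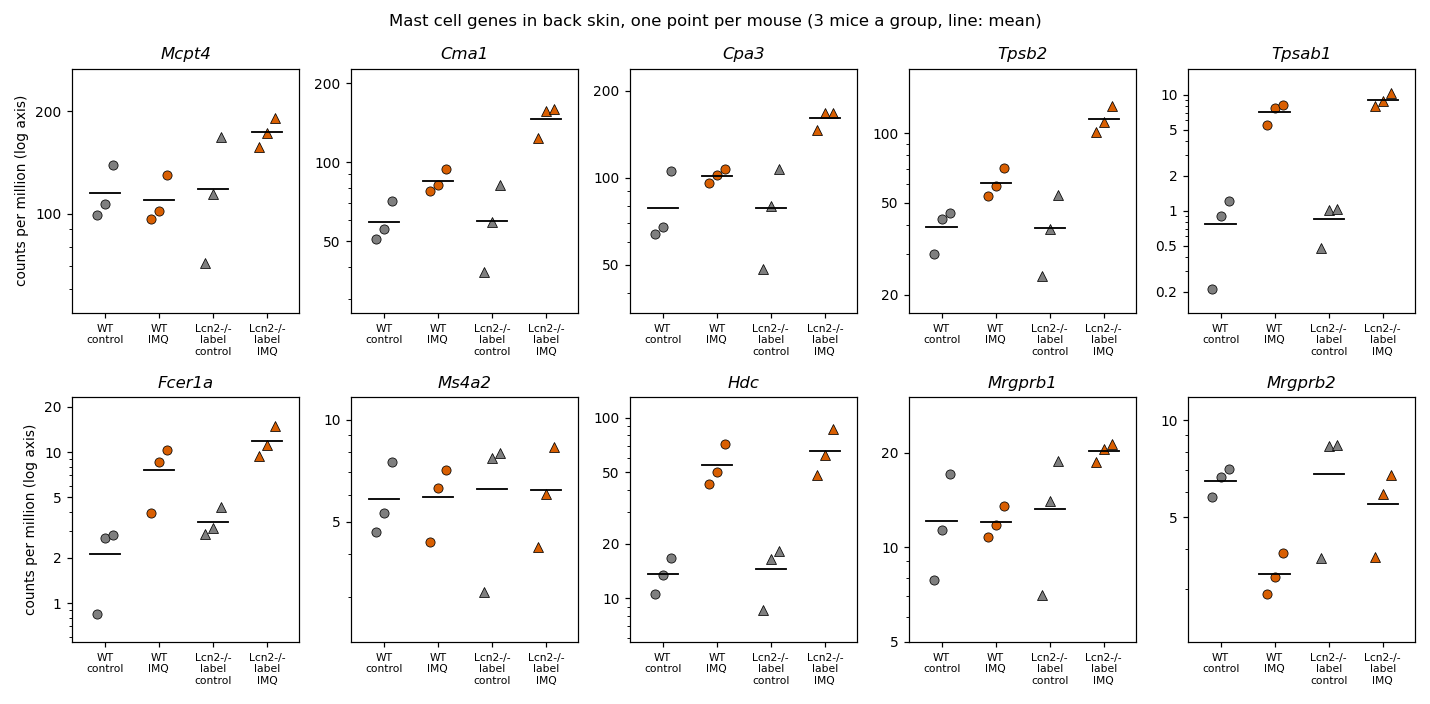
CPM of the 10 mast cell genes on a log axis, 1 point per mouse and a line at the mean of each group of 3; circles are WT, triangles mice labelled *Lcn2*-/-, grey control and orange IMQ. *Tpsab1*, *Fcer1a* and *Hdc* of the IMQ mice lie above those of the controls of the same label, while *Ms4a2* overlaps in all 4 groups.

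After IMQ the mast cell genes of WT mice moved unequally. *Tpsab1*, *Hdc* and *Fcer1a* rose by 9-fold, 4.03-fold and 3.54-fold, and *Mrgprb2* fell by 0.95 on the log2 scale. The other 6 did not pass the test. Of the 10 genes 3 were called higher, where 14.2% of all tested genes were, and 1 was called lower, where 14.3% of all tested genes were. A call is an adjusted p under 0.05 in edgeR's quasi-likelihood test over the 18529 genes. The median log2 fold change of the 10 genes was 0.44, against -0.02 over all tested genes.

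The tryptases had the widest contrast. *Tpsab1* stood at 1.2, 0.903 and 0.213 CPM in the WT controls and at 8.18, 5.45 and 7.65 CPM in the WT IMQ mice, which is 4 to 26 counts against 81 to 158. Every IMQ mouse was above every control (log2 fold change 3.17, SE 0.46, adjusted p = 0.000474). *Tpsb2*, the more abundant tryptase, stood at 42.3, 45.1 and 29.9 CPM in the controls and at 53.4, 70.4 and 58.9 CPM in the IMQ mice. These groups did not overlap either, but its log2 fold change of 0.64 (95% interval 0.08 to 1.19) missed the threshold at an adjusted p of 0.0813.

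*Hdc*, which turns histidine into histamine, stood at 13.5, 16.7 and 10.6 CPM in the WT controls. The WT IMQ mice had 43, 71.7 and 49.9 CPM, all above the controls (log2 fold change 2.01, SE 0.32, adjusted p = 0.000898). Most of the listed markers of neutrophils, which can express *Hdc*, also rose after IMQ. The summed level of 10 neutrophil markers was 15.5 to 42.3 CPM in WT controls and 6076 to 10180 CPM in WT IMQ mice, with 7 of 8 tested markers called higher. Most of the IMQ sum was *S100a8* and *S100a9*, at 2748 ± 1195 and 4777 ± 996 CPM (SD, n = 3). From controls to IMQ mice *Csf3r* went from 12.4 to 71.1 CPM, *Ly6g* from 0.0441 to 0.563 and *Elane* from 0.367 to 0.0874 (means). The part of neutrophils in the *Hdc* result was not tested.

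*Fcer1a*, the IgE-binding chain, stood at 2.68, 2.84 and 0.851 CPM in the WT controls and 3.94, 8.54 and 10.3 CPM in the WT IMQ mice. The groups did not overlap (log2 fold change 1.83, SE 0.44, adjusted p = 0.00995). *Ms4a2*, the beta chain of the same receptor, had 4.67, 7.52 and 5.32 CPM in controls and 4.36, 7.12 and 6.3 CPM in IMQ mice, which overlapped, and its log2 fold change was 0.02 (95% interval -0.79 to 0.83). Basophils carry the same receptor. The basophil protease *Mcpt8* had 3 counts in each WT control and 17, 14 and 0 in the WT IMQ mice, and the summed level of 5 basophil markers was 16.2 to 21.5 CPM in controls and 33.3 to 38.6 CPM in IMQ mice. Most of this sum was *Itga2*, an integrin chain that keratinocytes also carry, at 16.3 ± 2.08 and 30.7 ± 1.99 CPM (SD, n = 3). It alone of the 5 passed the test in WT mice (log2 fold change 0.91, adjusted p = 0.000827). In mice labelled *Lcn2*-/- the sum was 20.04 to 20.5 CPM in controls and 23.7 to 28.4 CPM in IMQ mice, with *Itga2* at 17.05 ± 1.09 and 18 ± 2.39 CPM. The part of these markers in the *Fcer1a* result was not tested. *Itga2* was lower in IMQ mice labelled *Lcn2*-/- than in WT IMQ mice (-0.77, adjusted p = 0.0245), a call lost without any of these mice but WT mouse 2 (adjusted p 0.0581 to 0.131).

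Neither *Mrgprb2* nor *Mrgprb1* was called higher in WT mice. *Mrgprb2*, the receptor through which cationic drugs and peptides activate mast cells, had 5.78, 6.66 and 7.07 CPM in the WT controls and 3.27, 2.89 and 3.88 CPM in the WT IMQ mice. Every IMQ mouse was below every control (log2 fold change -0.95, SE 0.32, adjusted p = 0.0435). This call was weak: it was lost without any 1 of the 6 mice, with adjusted p between 0.0676 and 0.118, and when libraries were scaled to the summed reads of 10 fibroblast markers in place of TMM (-0.66, adjusted p = 0.184). *Mrgprb1* had 11.4, 17.1 and 7.87 CPM in controls and 13.5, 10.7 and 11.7 CPM in IMQ mice, and its log2 fold change was -0.01 (95% interval -0.73 to 0.70).

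Among the remaining proteases *Cma1* was at 55.8, 70.9 and 50.8 CPM in WT controls and 78, 94.6 and 81.9 CPM in WT IMQ mice. The groups did not overlap, but the log2 fold change of 0.52 had an adjusted p of 0.118. *Mcpt4*, the most abundant of the genes, overlapped between the groups at 106.6, 139 and 99.2 CPM against 96.6, 129.7 and 102 CPM (log2 fold change -0.07, 95% interval -0.63 to 0.48). *Cpa3* overlapped as well, at 67.7, 105 and 63.9 CPM against 95.8, 107 and 102 CPM (log2 fold change 0.36, 95% interval -0.19 to 0.92).

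In mice labelled *Lcn2*-/- 6 of the 10 genes passed the test after IMQ, 4 of them proteases. *Tpsab1* rose by 10.5-fold, *Hdc* by 4.51-fold, *Fcer1a* by 3.41-fold, *Tpsb2* by 2.94-fold, *Cma1* by 2.45-fold and *Cpa3* by 2.05-fold. Of the 10 genes 6 were called higher, where 14.1% of all tested genes were, and 0 were called lower, where 11.2% of all tested genes were. The 10 genes had a median log2 fold change of 1.17, against -0.05 over all tested genes.

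These counts moved with the scaling. The summed fibroblast markers were 11030 to 12200 CPM in the controls labelled *Lcn2*-/- and 20550 to 21320 CPM in the IMQ mice of that label, against 10470 to 17590 and 10500 to 11190 CPM in WT mice. With libraries scaled to fibroblast marker reads, 4 genes were called higher in mice labelled *Lcn2*-/-. Of all 18529 tested genes 688 were called higher there, against 2611 with TMM. The calls of *Cma1* (log2 fold change 0.43, adjusted p = 0.0924) and *Cpa3* (0.17, adjusted p = 0.491) were lost, and *Tpsb2* stood at 0.69 (adjusted p = 0.0139) and *Fcer1a* at 0.90 (adjusted p = 0.0376). *Ms4a2* (-0.89, adjusted p = 0.0363) and *Mrgprb2* (-1.18, adjusted p = 0.00814) were then called lower, where 11963 of all 18529 tested genes were. In WT mice 6 genes were called higher with this scaling, *Cma1* (0.86), *Tpsb2* (0.98) and *Cpa3* (0.72) besides the 3 named above, and 0 lower. Of all 18529 tested genes 3531 were called higher and 1033 lower there.

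*Cma1* was at 82.2, 38.1 and 59 CPM in the controls labelled *Lcn2*-/- and at 159, 157 and 124 CPM in the IMQ mice (log2 fold change 1.29, SE 0.24, adjusted p = 0.00292). *Tpsb2* was at 54.1, 24.1 and 38.5 CPM against 111.5, 131 and 101 CPM (log2 fold change 1.55, SE 0.26, adjusted p = 0.00174). For *Cpa3* the values were 107, 48.4 and 80.1 CPM against 168, 167 and 147 CPM (log2 fold change 1.03, SE 0.25, adjusted p = 0.0131). In all 3 genes the lowest IMQ mouse was above the highest control, and control mouse 2 was the lowest of the 12 mice.

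*Tpsab1* was at 1.02, 0.479 and 1.03 CPM in the controls labelled *Lcn2*-/- and at 7.94, 10.3 and 8.88 CPM in the IMQ mice (log2 fold change 3.40, SE 0.46, adjusted p = 0.000487). *Hdc* was at 18.3, 8.58 and 16.6 CPM against 61.9, 48.4 and 86.5 CPM (log2 fold change 2.17, SE 0.32, adjusted p = 0.000864). *Fcer1a* was at 4.34, 2.88 and 3.13 CPM against 9.34, 11.2 and 14.9 CPM (log2 fold change 1.77, SE 0.43, adjusted p = 0.0122). These 3 genes are the ones that had also risen in WT mice, and their groups did not overlap here either. The *Fcer1a* call was lost without IMQ mouse 3, at a log2 fold change of 1.56 and an adjusted p of 0.0510. The summed neutrophil markers were 32.7 to 74.5 CPM in these controls and 3770 to 10390 CPM in these IMQ mice. Most of the IMQ sum was again *S100a8* and *S100a9*, at 3044 ± 1416 and 4226 ± 1878 CPM (SD, n = 3).

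The other 4 genes did not pass the test in mice labelled *Lcn2*-/-. *Mcpt4* had 168, 71.4 and 114.5 CPM in the controls and 191, 173 and 158 CPM in the IMQ mice, with a log2 fold change of 0.56 (adjusted p = 0.130) that passed without control mouse 1 (0.90, adjusted p = 0.0154). *Ms4a2* ran from 3.09 to 7.95 CPM in controls and from 4.2 to 8.3 CPM in IMQ mice. *Mrgprb1* ran from 7.03 to 18.8 and from 18.7 to 21.3 CPM, and *Mrgprb2* from 3.73 to 8.38 and from 3.78 to 6.78 CPM. All 4 pairs of groups overlapped.

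**Figure D2:**
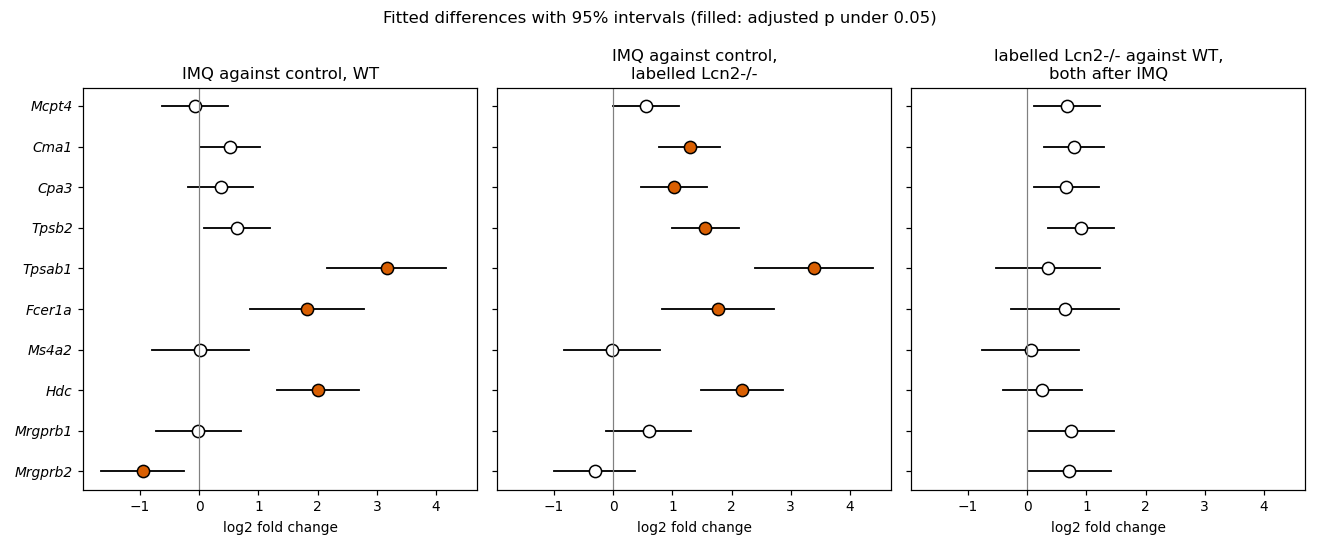
Fitted log2 fold changes of the 10 mast cell genes with 95% intervals, for IMQ against control in WT, IMQ against control in mice labelled *Lcn2*-/-, and the labelled mice against WT after IMQ; filled points have an adjusted p under 0.05. The panels hold 4, 6 and 0 filled points, and in the third panel all 10 points lie above 0 under library scaling. All 10 lie below 0 when libraries are scaled to fibroblast marker reads, which moves the median of all tested genes to -0.97.

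Set directly against WT IMQ mice, IMQ mice labelled *Lcn2*-/- had higher fitted values of all 10 mast cell genes with libraries scaled by TMM, and lower ones of all 10 when libraries were scaled to their fibroblast marker reads. With TMM none of these differences passed the test. With fibroblast scaling *Ms4a2* (-0.89, adjusted p = 0.0399) and *Hdc* (-0.69, adjusted p = 0.0341) were called lower, where 11971 of all 18529 tested genes were. That scaling moved the median log2 fold change of all tested genes to -0.97. With TMM, of the 10 genes 0 were called higher, where 2.19% of all tested genes were, and 0 were called lower, where 2.6% were, with edgeR's quasi-likelihood test on all 12 mice. Unadjusted p-values lay under 0.05 for 6 of the 10 and for 4999 of all 18529 tested genes. DESeq2 called 2 higher (*Cma1* and *Tpsb2*), where 1230 of 34819 fitted genes were. Fitted on the 6 compared mice alone, edgeR called 5 higher (these 2, *Mcpt4*, *Cpa3* and *Mrgprb1*), where 1077 of 16991 genes were. With TMM on all 12 mice the median log2 fold change of the 10 genes was 0.67, against -0.02 over all tested genes.

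The differences nearest the threshold were those of *Tpsb2* (log2 fold change 0.91, 95% interval 0.36 to 1.47, adjusted p = 0.0596) and *Cma1* (0.79, 95% interval 0.28 to 1.30, adjusted p = 0.0691). *Tpsb2* had 53.4 to 70.4 CPM in WT IMQ mice and 101 to 131 CPM in IMQ mice labelled *Lcn2*-/-. *Cma1* had 77.97 to 94.6 and 124 to 159 CPM. In these 2 genes, and in *Mcpt4*, *Cpa3* and *Mrgprb1*, the groups did not overlap. The share of all tested genes without overlap was not counted. For *Tpsab1* (0.35, 95% interval -0.53 to 1.23), *Hdc* (0.26, 95% interval -0.40 to 0.92) and *Ms4a2* (0.06, 95% interval -0.75 to 0.88) the mice of the groups were interspersed, and those of *Fcer1a* (0.64) and *Mrgprb2* (0.71) overlapped too.

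Markers of other dermal cells differed in the same direction between these IMQ groups. The summed level of 10 fibroblast markers was 10500 to 11190 CPM in WT IMQ mice and 20550 to 21320 CPM in IMQ mice labelled *Lcn2*-/-, with 10 of 10 higher and 3 called. For 10 endothelial markers it was 526.6 to 854.5 and 1037 to 1068 CPM, with 10 of 10 higher and 1 called. The 10 keratinocyte markers went the other way, at 33640 to 45090 and 19720 to 30930 CPM, with 10 of 10 lower and 2 called. The number of calls in this comparison changed with the mouse left out. Without any 1 of 5 of the 6 IMQ mice at most 1 gene of all tested was called higher and 3 lower. Without WT IMQ mouse 2 the numbers were 1288 and 1438, against 405 and 481 with all mice. The part of this difference between dermal and epidermal markers in the mast cell result was not tested. The reads of *Cma1*, *Mcpt4*, *Tpsb2* and *Cpa3* per 10000 fibroblast marker reads were 328 ± 27.4 in WT IMQ mice and 283 ± 30.7 in IMQ mice labelled *Lcn2*-/- (SD, n = 3), against 212 ± 18.7 in WT controls and 255 ± 86.2 in controls labelled *Lcn2*-/-.

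**Figure D3:**
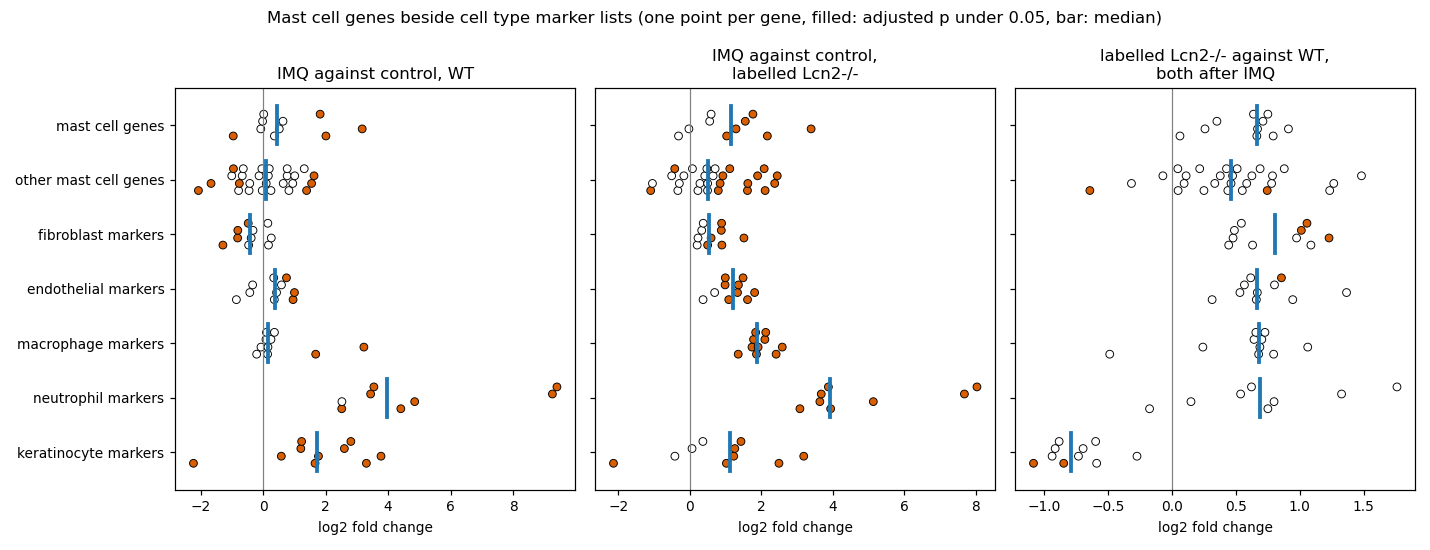
Log2 fold changes of the mast cell genes, of other mast cell genes and of markers of 5 other cell types in the same 3 comparisons, 1 point per gene, filled where the adjusted p is under 0.05, with a bar at the median; the horizontal scale differs between panels. In the third panel the medians of the mast cell genes (0.67), fibroblast (0.80) and endothelial markers (0.66) lie above 0 and that of the keratinocyte markers (-0.79) below. Scaled to fibroblast marker reads all 10 mast cell genes fall below 0, as does the median of all tested genes (-0.97).

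Without IMQ the mice labelled *Lcn2*-/- and WT mice had close mean levels, with wide intervals. The fitted log2 fold changes ran from -0.01 for *Cpa3* and *Tpsb2* to 0.69 for *Fcer1a* (95% interval -0.27 to 1.65, adjusted p = 0.895), and 0 of 10 genes were called in either direction, where 0.0054% of all tested genes were higher and 0.0054% lower. The interval of *Cpa3*, -0.56 to 0.54, leaves room for differences of that size. Tested as the difference of the IMQ responses, the labelled mice had larger fitted responses in 8 of the 10 genes under library scaling, of which those of all 8 turned negative when scaled to fibroblast marker reads. Under library scaling 0 were called higher, where 1.37% of all tested genes were, and 0 lower, where 0.783% were. Fibroblast scaling gave 3 called lower, *Fcer1a* (-1.33, adjusted p = 0.0370), *Ms4a2* (-1.25, adjusted p = 0.0432) and *Hdc* (-1.06, adjusted p = 0.0280). It called 10860 of all 18529 tested genes lower and moved their median to -1.20. Under library scaling the largest differences were those of *Tpsb2* (0.92, 95% interval 0.14 to 1.70, adjusted p = 0.151) and *Cma1* (0.78, 95% interval 0.05 to 1.50, adjusted p = 0.180). With TMM the difference was thus called for 0 genes, and that 6 genes passed in one genotype label and 3 of them in the other is no test that the responses differ. *Tpsb2* passed in this comparison without control mouse 1 labelled *Lcn2*-/- (1.24, adjusted p = 0.0499).

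Reads of 2 mast cell genes set against each other within a library do not depend on the library's scaling. The 7 ratios given here were chosen with the values in view, so they are descriptions with no test. *Mcpt4* reads per 100 *Cma1* reads were 191, 196.5 and 195 in the WT controls and 204, 187 and 194 in the controls labelled *Lcn2*-/-. After IMQ they were 124, 137 and 124 in WT mice and 120, 109.9 and 127 in mice labelled *Lcn2*-/-. The 6 control mice thus lay within 187 to 204 although their *Mcpt4* level ranged from 71.4 to 168 CPM, and all 6 IMQ mice lay below them.

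The change of the *Mcpt4* to *Cma1* ratio was a log2 difference of -0.66 over both genotype labels (-0.60 in WT, -0.72 in mice labelled *Lcn2*-/-). *Tpsab1* reads per 100 *Tpsb2* reads were 0.711 to 2.84 in the 6 controls and 7.12 to 15.3 in the 6 IMQ mice, a 5.16-fold change. *Hdc* reads per 100 *Cpa3* reads were 15.9 to 20.7 and 28.9 to 67, a 2.56-fold change.

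For the IgE receptor, *Fcer1a* reads per 100 *Ms4a2* reads were 16 to 93.1 in the controls and 90.3 to 356 in the IMQ mice, with no overlap between IMQ and control within either label. *Ms4a2* reads per 100 *Cpa3* reads fell by 0.72 on the log2 scale, from 6.39 to 9.93 in the controls to 2.86 to 6.66 in the IMQ mice. *Mrgprb2* reads per 100 *Mrgprb1* reads fell by 0.99 on the log2 scale, from 39 to 89.9 to 20.2 to 33.1. The ratio of *Tpsb2* to *Cma1*, at 59 to 75.8 and 68.5 to 83.3 per 100, moved least of the 7 (log2 difference 0.20), and its controls and IMQ mice overlapped.

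**Figure D4:**
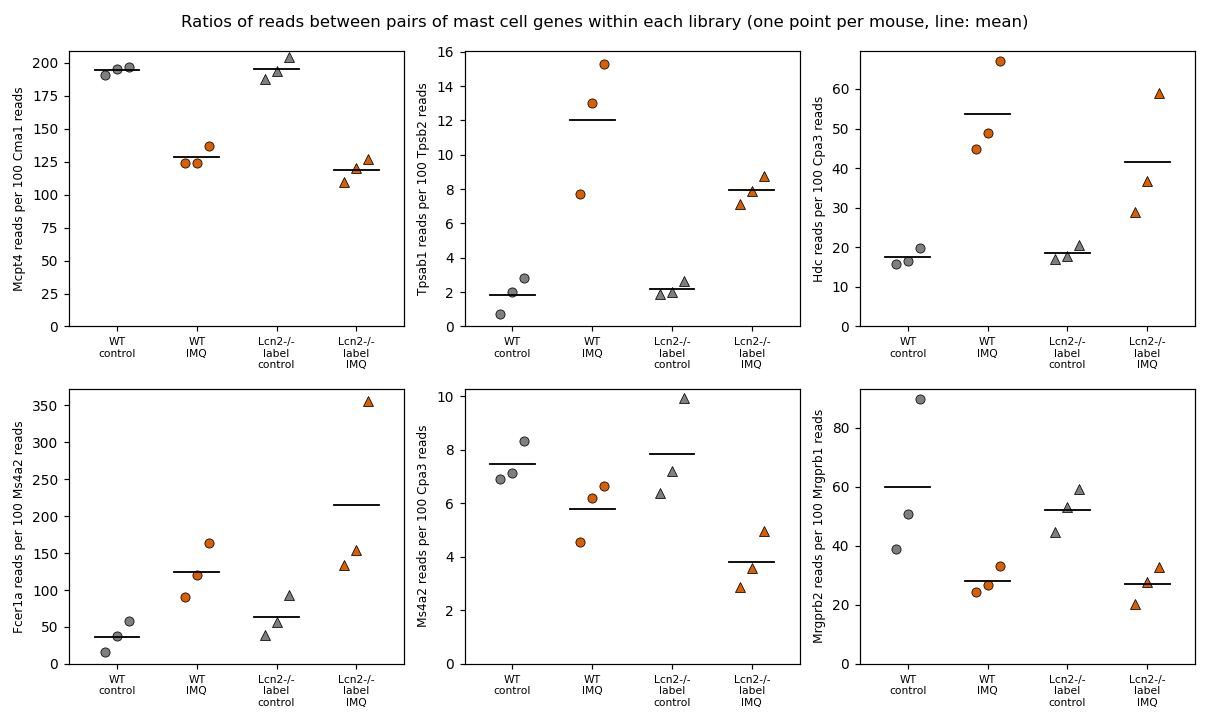
Reads of one mast cell gene per 100 reads of another within each library, 1 point per mouse with a line at the mean of each group of 3, from 0. *Mcpt4* per 100 *Cma1* lies at 187 to 204 in the 6 controls and 110 to 137 in the 6 IMQ mice, and *Hdc* per 100 *Cpa3* at 15.9 to 20.7 and 28.9 to 67.

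Promoters were looked at because the genes moved unequally. RefSeq (GRCm38.p6) gave the 250 bases before the start of 8 of the 10 genes, all but the tryptases. The GATA factor motif AGATAA, read on both strands, occurred in 3 of them, *Cpa3*, *Fcer1a* and *Ms4a2*, and in 9.99% of 32851 promoters of the same length. GATA factors, GATA2 above all, are known regulators of mast cell genes. *Ms4a2* held the motif 3 times, *Cpa3* and *Fcer1a* once each. They are printed 5′ to 3′ on the strand of the gene with motifs in capitals (TTATCT is AGATAA on the other strand).
*Ms4a2* (chr19:11623720-11623969, minus strand): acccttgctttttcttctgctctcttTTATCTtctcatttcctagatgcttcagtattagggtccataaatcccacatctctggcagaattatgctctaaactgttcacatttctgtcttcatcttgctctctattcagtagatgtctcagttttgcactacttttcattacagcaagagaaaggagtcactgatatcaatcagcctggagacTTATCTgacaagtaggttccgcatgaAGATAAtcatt
*Fcer1a* (chr1:173227230-173227479, minus strand): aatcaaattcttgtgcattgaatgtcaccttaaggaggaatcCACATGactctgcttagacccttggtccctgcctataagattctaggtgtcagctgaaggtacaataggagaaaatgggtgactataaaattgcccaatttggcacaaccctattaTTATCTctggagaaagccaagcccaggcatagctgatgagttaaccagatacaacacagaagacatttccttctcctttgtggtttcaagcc
*Cpa3* (chr3:20242182-20242431, minus strand): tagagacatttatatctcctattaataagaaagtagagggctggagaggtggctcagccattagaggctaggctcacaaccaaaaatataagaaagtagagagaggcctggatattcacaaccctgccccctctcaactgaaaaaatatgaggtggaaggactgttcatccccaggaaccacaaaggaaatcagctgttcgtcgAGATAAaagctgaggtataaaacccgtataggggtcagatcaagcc

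The motif CATGTG, an E-box that MITF can bind and that does not overlap the GATA motif, occurred in *Fcer1a* alone (capitals CACATG above) and in 12.2% of all promoters. The E-box CACGTG occurred in 0 of 8, and in 6.02% of all promoters. The 3 genes with a GATA motif did not respond alike: *Fcer1a* rose in both genotype labels, *Cpa3* passed with TMM in mice labelled *Lcn2*-/- only, with no call for the difference of its responses (adjusted p = 0.268), and *Ms4a2* was near 0 in both with TMM. A match of letters in a window is no evidence of binding.

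The wider set of 30 mast cell genes was mixed. Of the 27 that were tested, 3 were called higher and 4 lower after IMQ in WT mice, where 14.2% and 14.3% of all tested genes were. In mice labelled *Lcn2*-/- 11 were called higher and 2 lower, where 14.1% and 11.2% of all tested genes were, and between the IMQ groups 1 was called each way, where 2.19% and 2.6% were. Their median log2 fold changes were 0.10, 0.50 and 0.46 in the 3 comparisons. The genes of mucosal mast cells *Mcpt1* and *Mcpt2* had at most 1 and 3 counts in any library.

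*Kit*, the stem cell factor receptor of mast cells that melanocytes also carry, was at 30.6 ± 0.729 CPM in WT controls, 22.8 ± 3.8 in WT IMQ mice, 36.1 ± 6.34 in controls labelled *Lcn2*-/- and 38.1 ± 2.48 in IMQ mice labelled *Lcn2*-/- (SD, n = 3). It was called higher in the latter IMQ group than in WT IMQ mice (log2 fold change 0.74, SE 0.15, adjusted p = 0.0293), a call lost without any IMQ mouse but WT mouse 2 (adjusted p 0.0721 to 0.155) and turned to -0.21 by scaling to fibroblast marker reads. *Gata2*, the mast cell transcription factor, was at 9.76 ± 2.08, 11 ± 2.85, 9.88 ± 3.84 and 15.6 ± 0.938 CPM in the same order and was not called. *Mitf*, a transcription factor of mast cells and melanocytes, fell by 0.76 on the log2 scale in WT mice (adjusted p = 0.00176) and by 0.42 in mice labelled *Lcn2*-/- (adjusted p = 0.0398). The second call was lost without control mouse 2 or 3 or IMQ mouse 1 or 2 (adjusted p 0.0901 to 0.143), and the first with fibroblast scaling (-0.44, adjusted p = 0.123). Melanocyte markers were lower too. The summed level of 7 of them was 106 to 476.9 CPM in WT controls and 72.5 to 148 CPM in WT IMQ mice, with 7 of 7 lower and 3 called, and 225 to 668.8 against 81.4 to 126 CPM in mice labelled *Lcn2*-/-, with 7 of 7 lower and 5 called. Their part in the *Mitf* result was not tested.

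Genes of lipid mediators and granules moved in both directions. *Hpgds*, the prostaglandin D2 synthase of haematopoietic cells, rose by 1.39 on the log2 scale in WT mice (adjusted p = 0.00405) and by 0.85 in mice labelled *Lcn2*-/- (adjusted p = 0.0447), where scaling to fibroblast marker reads gave -0.03. *Hs3st1*, a heparan sulfate sulfotransferase, rose in both (1.63, adjusted p = 0.00158 and 2.08, adjusted p = 0.000586), and so did *Rab27b*, a small GTPase of granule release (1.55 and 0.93). With fibroblast scaling the *Rab27b* value in mice labelled *Lcn2*-/- was 0.045 (adjusted p = 0.864). *Rab27b* was lower in IMQ mice labelled *Lcn2*-/- than in WT IMQ mice (-0.64, adjusted p = 0.0300). *Slc45a3* fell in both (-1.66 and -1.09), and *Ltc4s*, the leukotriene C4 synthase (-2.07, adjusted p = 0.0246), and *Maob*, a monoamine oxidase (-0.95, adjusted p = 0.0277), fell in WT mice. Calls lost without single mice were those of *Hpgds* in mice labelled *Lcn2*-/- (any mouse but control 3, adjusted p 0.0553 to 0.168), *Ltc4s* (WT control 2 or any WT IMQ mouse, 0.0549 to 0.113), *Maob* (WT control 2 or WT IMQ mouse 1 or 3, 0.105 to 0.108, and with fibroblast scaling, 0.0917) and the lower *Rab27b* (any IMQ mouse but WT mouse 2, 0.0635 to 0.157).

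In mice labelled *Lcn2*-/- alone the test was passed by the IgE receptor gamma chain *Fcer1g* (log2 fold change 2.11), the granule proteoglycan core *Srgn* (1.62), the IL-33 receptor *Il1rl1* (1.90), the 5-lipoxygenase activating protein *Alox5ap* (1.63), *Rgs13* (2.38), the adaptor *Lat2* (1.12), the granule membrane protein *Cd63* (0.80) and *Prss34* (2.45), with no difference of responses called for any of them. The call of *Alox5ap* was lost without control mouse 3 (adjusted p = 0.0543), that of *Lat2* without control mouse 2 or 3 or IMQ mouse 1 or 2 (0.0504 to 0.0668), and that of *Prss34* without any mouse but IMQ 2 (0.0513 to 0.152). Scaled to fibroblast marker reads, *Cd63* turned to -0.08 and the calls of *Lat2* (0.26, adjusted p = 0.400) and *Prss34* (1.61, adjusted p = 0.0822) were lost. *Rgs13* had few reads, 3 to 8 counts in these controls and 15 to 20 in these IMQ mice. *Fcer1g*, *Srgn*, *Alox5ap*, *Cd63* and *Lat2* are also genes of macrophages and other leukocytes. All 10 macrophage markers were called higher after IMQ in these mice, against 2 of 10 in WT mice, and their part was not tested.

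The IgE receptor pathway behaved likewise. Of 12 signalling genes, 7 rose after IMQ in mice labelled *Lcn2*-/-, where 14.1% of all tested genes did, among them the kinases *Syk* (log2 fold change 2.01, adjusted p = 0.00146), *Lyn* (1.86, adjusted p = 0.0117) and *Btk* (1.67, adjusted p = 0.0152), the phospholipase *Plcg2* (0.92, adjusted p = 0.00742) and the adaptor *Gab2* (0.96, adjusted p = 0.00975), besides *Fcer1g* and *Lat2*. In WT mice 0 rose. Without single mice the calls of *Lyn* (IMQ 3, adjusted p = 0.0512) and *Btk* (control 2 or 3 or IMQ 3, 0.0516 to 0.0616) were lost, as they were without a filter on low counts (0.0623 and 0.0592). Scaling to fibroblast marker reads ended the calls of *Plcg2* (0.04, adjusted p = 0.847), *Gab2* (0.09, adjusted p = 0.722) and *Lat2*. Neither the difference of responses nor the comparison of the IMQ groups was called for any of the 12. Histamine receptors and breakdown enzymes gave no call: *Hrh1*, *Hrh2* and *Hnmt* were tested, and *Hrh4* had at most 15 counts in any library.

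**Figure D5:**
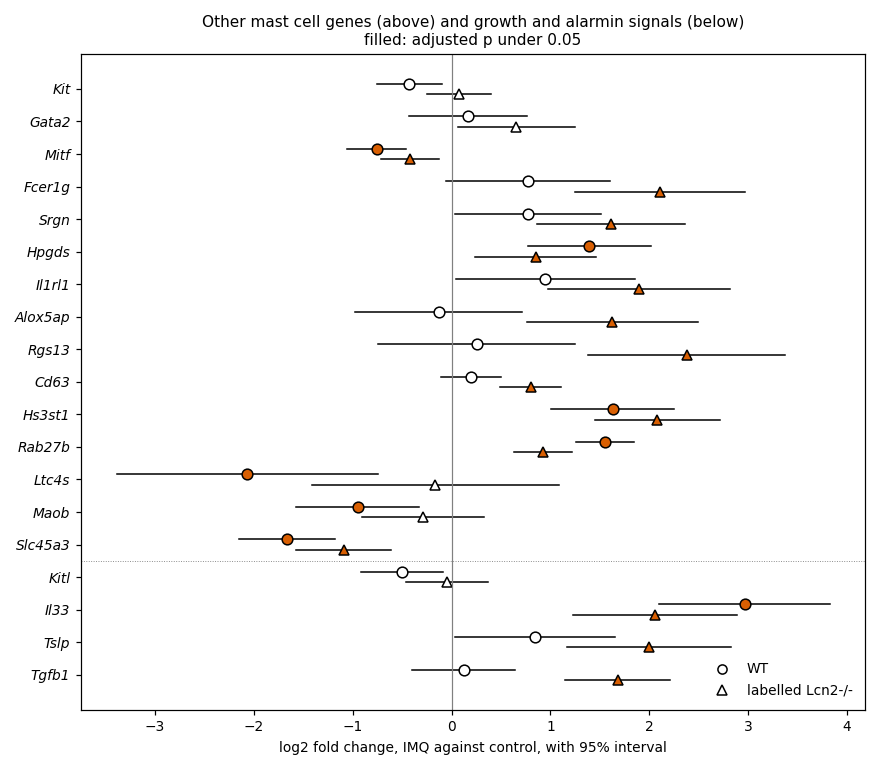
Log2 fold changes of IMQ against control with 95% intervals for 15 other mast cell genes and, below the dotted line, 4 growth and alarmin signals; circles are WT, triangles mice labelled *Lcn2*-/-, filled where the adjusted p is under 0.05. *Mitf* and *Slc45a3* lie below 0 with filled points in both, and *Il33*, *Hs3st1*, *Hpgds* and *Rab27b* lie above 0 with filled points in both.

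Signals that act on mast cells came next. *Il33*, the alarmin released by injured keratinocytes, was at 29.3 ± 9.08 CPM in WT controls and 229 ± 18.2 in WT IMQ mice (log2 fold change 2.96, SE 0.39, adjusted p = 0.000298), and at 28.4 ± 8.48 and 119 ± 71.7 CPM in mice labelled *Lcn2*-/- (log2 fold change 2.06, SE 0.38, adjusted p = 0.00314). *Kitl*, the stem cell factor that mast cells need, was not called in any comparison (-0.50, adjusted p = 0.0710 in WT). *Tslp* rose in mice labelled *Lcn2*-/- (2.00, adjusted p = 0.00344). *Tgfb1* rose in mice labelled *Lcn2*-/- by 1.68 on the log2 scale (adjusted p = 0.000802), against 0.12 in WT mice. It was the 1 gene of the mast cell, pathway and basophil lists whose IMQ responses differed (adjusted p = 0.0432). Of all tested genes 1.37% were called higher and 0.783% lower for this difference. That call was lost without 9 of the 12 mice in turn, all but WT control 3, WT IMQ 2 and control 1 labelled *Lcn2*-/- (adjusted p 0.0706 to 0.136), and with fibroblast scaling (0.33, adjusted p = 0.357). It was also lost with the replicate number as a block.

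The Mrgprb family held a gene outside the list with a sharper change. *Mrgprb3* had 97, 86 and 68 counts in WT controls and 0 in each WT IMQ mouse, and 151, 59 and 137 counts in controls labelled *Lcn2*-/- against 0, 2 and 0 in the IMQ mice. Against a floor of 3 counts per library it was at least 22.3-fold lower in WT mice and at least 26.4-fold lower in mice labelled *Lcn2*-/-. *Mrgprb4*, *Mrgprb5*, *Mrgprb8* and *Mrgprb13* had at most 0, 2, 6 and 7 counts, and *Mrgprb6* and *Mrgprb10* had no row under these names.

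The basophil proteases had few counts. *Mcpt8* had 2, 3 and 6 counts in the controls labelled *Lcn2*-/- and 12, 31 and 17 in the IMQ mice (log2 fold change 2.85, adjusted p = 0.0457), a call lost without any 1 of these 6 mice (adjusted p 0.0653 to 0.144) and with fibroblast scaling (1.97, adjusted p = 0.0681). *Prss34* was likewise low, at 0.21 ± 0.188 and 1.24 ± 0.709 CPM (adjusted p = 0.0433), and is also found in mast cells. The other basophil markers *Cd200r3* and *Il4* had 13 to 70 and 15 to 53 counts over the 12 libraries, and *Itga2* 265 to 655.

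Mice of a group differed in the mast cell genes together. The mean deviation of the 10 genes from their group means ran from -0.64 on the log2 scale in control mouse 2 labelled *Lcn2*-/- to 0.47 in control mouse 1 of the same label, and from -0.42 to 0.36 within WT controls, while IMQ mice stayed within -0.17 and 0.10. Summed over the 10 genes, control mice labelled *Lcn2*-/- had 207.8 to 469.5 CPM, WT controls 275.7 to 412.4, WT IMQ mice 400.1 to 508.3 and IMQ mice labelled *Lcn2*-/- 666.7 to 742.2 CPM. Over the 12 mice the deviations of *Tpsb2* (Pearson r = 0.95), *Cpa3* (0.93), *Cma1* (0.91), *Mrgprb1* (0.89) and *Mcpt4* (0.89) followed the mean of the other 9 genes most closely, and those of *Tpsab1* (0.60), *Mrgprb2* (0.57) and *Fcer1a* (0.50) least. Libraries, depth and skin composition are shared by these points, so the values are descriptions.

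Among the other tested genes, the secreted phospholipase *Pla2g2d* (r = 0.98), the scavenger receptor protein *Ssc5d* (0.95), the sulfotransferase *Chst15* (0.95), the zinc finger gene *Zfp874b* (0.95) and the amino acid transporter *Slc43a1* (0.95) had the deviations most like the mean of the mast cell genes over the 12 mice. Of the wider mast cell set *Lat2* ranked highest (r = 0.93, rank 21 of 18519 genes), ahead of *Cyp11a1* (0.87), *Ltc4s* (0.84), *Alox5ap* (0.82) and *Tph1* (0.81). The lowest of the wider set were *Hs3st1* (-0.23), *Rgs13* (-0.11), *Ctsg* (-0.09), *Mitf* (-0.01), *Rab27b* (-0.007) and *Kit* (0.25), which did not follow.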

How the data were processed

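The authors deposited raw counts, whole numbers of reads per Ensembl gene for 12 skin libraries from paired reads of 150 bp. The submitters' processing notes name HISAT and mm8, without versions, and the study's methods name DESeq2. The counting tool and annotation are not given in the sources used here, and the kit named does not mark strand. Names and positions came from GENCODE M21 (GRCm38), which held 52073 of 56923 identifiers (91.5%). Counts without a name made up 0.567%. Where identifiers shared a symbol (68 cases), the one with more counts was kept. Coordinates are of GRCm38 and not of the authors' build.

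Counts were tested with edgeR 4.0.16 (R 4.3.3): TMM scaling, filterByExpr (minimum count 10), 4 group means over 12 mice, robust quasi-likelihood fit, 5 contrasts, Benjamini-Hochberg adjustment over 18529 genes, and a threshold of 0.05 with no fold limit. SE is the log2 fold change divided by the square root of F. CPM are TMM-scaled. Mitochondrial counts took 2.9% to 4.4%. Floors cover counting error alone, and the reads carry no molecular identifiers. The test was checked on simulated data. Sequences came from GENCODE M21 transcripts and RefSeq promoters (Python 3.11.15, Biopython 1.88). Libraries of a group were not duplicates. Alternatives were RLE factors, scaling to fibroblast marker reads, DESeq2 1.42.0, the compared mice only, other filters, a replicate block, leaving out each mouse, and a fold limit of 2 with an unadjusted p.

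The 10 genes and all gene lists were chosen with earlier results of these data known. Named besides the 10 genes are those of the mast cell, pathway and basophil lists called in a contrast, *Kit*, *Gata2*, *Mitf*, *Kitl*, *Il33* and *Mcpt8* in any case, *Lcn2*, and the 5 genes of most similar deviations. Ratios of reads were chosen after seeing the data, as were the alternatives for named genes besides the 10 and the naming of *Crx* and *Nrl*. Results of some genes of these lists are not reported here.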

Additional observations from a re-analysis of the deposited data

Results flagged for a closer look

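The IMQ response of *Tgfb1*, a growth factor that acts on mast cells, differed between genotype labels by a test of the difference itself. It was larger in mice labelled *Lcn2*-/- than in WT mice by 1.56 on the log2 scale (edgeR's quasi-likelihood test, adjusted p = 0.0432). Of all tested genes 1.37% were called higher and 0.783% lower for this difference. Of the 10 macrophage markers 9 also had larger fitted responses in the labelled mice and 1 a smaller one (median 1.71), with 0 called. Their part in the *Tgfb1* result was not tested. *Tgfb1* is described further here. The level of *Tgfb1* was 56.6 ± 14.5 CPM in WT controls, 61.7 ± 22.2 in WT IMQ mice, 35.7 ± 2.18 in controls labelled *Lcn2*-/- and 115 ± 13.9 in IMQ mice labelled *Lcn2*-/- (SD, n = 3). In the labelled mice the IMQ values did not overlap the controls. The call was lost without 9 of the 12 mice left out in turn (adjusted p 0.0706 to 0.136) and when libraries were scaled to fibroblast marker reads (0.33, adjusted p = 0.357). It was also lost with the replicate number as a block.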

How the results depend on the processing

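Leaving out each mouse in turn, the counts of genes called ran as follows: WT lower 0 to 0, labelled *Lcn2*-/- against WT after IMQ higher 0 to 1 (*Tpsb2* without WT IMQ mouse 2), difference of responses higher 0 to 1 (*Tpsb2* without control mouse 1 labelled *Lcn2*-/-). The cause was not tested. Counts of genes called higher moved from 3 to 6 in WT mice and from 6 to 4 in mice labelled *Lcn2*-/- when libraries were scaled to fibroblast marker reads, and from 0 to 2 (DESeq2) and 5 (edgeR on the compared mice) after IMQ. Counts called lower moved from 1 to 0 in WT mice with fibroblast scaling, with the fold limit and with the replicate block, and with fibroblast scaling from 0 to 2 in the IMQ response of mice labelled *Lcn2*-/-, from 0 to 2 (*Ms4a2* and *Hdc*) between the IMQ groups and from 0 to 3 for the difference of responses. Fibroblast scaling moved the median log2 fold change of all genes to 0.28 in WT, -0.93 in mice labelled *Lcn2*-/-, -0.97 between the IMQ groups, 0.22 without IMQ and -1.20 for the difference. Over all 18529 genes it called 11963 lower after IMQ in mice labelled *Lcn2*-/-, 11971 between the IMQ groups and 10860 for the difference. It called 688 higher after IMQ in mice labelled *Lcn2*-/-, against 2611 with TMM, and 3531 higher in WT mice, against 2633 with TMM. The replicate numbers did not pair the mice: deviations of same-numbered libraries correlated at -0.55 to 0.20 (mean -0.05 over 18 pairs). With the replicate number as a block the log2 fold change of *Mrgprb2* in WT mice was -0.96 (adjusted p = 0.0702), no other call of the 10 genes was lost, and the difference of responses of *Tgfb1* was 1.58 (adjusted p = 0.0658). Over all genes the block left 77 higher and 59 lower between the IMQ groups (405 and 481 without it) and 7 and 3 for the difference (253 and 145), and DESeq2 gave 1230 and 1272, and 1054 and 873.

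Signs turned for values near 0 and under fibroblast scaling. Scaled to fibroblast marker reads, log2 fold changes were 0.26 (*Mcpt4*) and 0.38 (*Mrgprb1*) in WT, -0.30 (*Mcpt4*) and -0.26 (*Mrgprb1*), -0.027 (*Hpgds*) and -0.077 (*Cd63*) in mice labelled *Lcn2*-/-, and 0.25 (*Tpsb2*) and 0.26 (*Cpa3*) without IMQ. Between the IMQ groups they were -0.16 (*Cma1*), -0.28 (*Mcpt4*), -0.041 (*Tpsb2*), -0.61 (*Tpsab1*), -0.29 (*Cpa3*), -0.31 (*Fcer1a*), -0.89 (*Ms4a2*), -0.69 (*Hdc*), -0.21 (*Mrgprb1*), -0.24 (*Mrgprb2*) and -0.21 (*Kit*). For the difference of responses they were -0.42 (*Cma1*), -0.56 (*Mcpt4*), -0.29 (*Tpsb2*), -1.05 (*Tpsab1*), -0.55 (*Cpa3*), -1.06 (*Hdc*), -0.64 (*Mrgprb1*) and -0.52 (*Mrgprb2*). In WT mice *Mrgprb1* was 0.0021 with RLE factors and *Ms4a2* -0.014 without the filter. Without IMQ *Tpsb2* was 0.014 (RLE), 0.012 (DESeq2), 0.014 (compared mice), 0.00067 (no filter) and 0.00054 (strict filter), and *Cpa3* 0.011 (RLE), 0.0096 (DESeq2) and 0.013 (compared mice). Leaving out 1 mouse, the log2 fold changes that crossed 0 ran, in WT mice, from -0.22 to 0.089 (*Mcpt4*), -0.13 to 0.25 (*Ms4a2*) and -0.25 to 0.32 (*Mrgprb1*), in mice labelled *Lcn2*-/- from -0.34 to 0.19 (*Ms4a2*), and between the IMQ groups from -0.21 to 0.28 (*Ms4a2*). Without IMQ they ran from -0.28 to 0.26 (*Cma1*), -0.31 to 0.30 (*Mcpt4*), -0.32 to 0.24 (*Tpsb2*), -0.30 to 0.57 (*Tpsab1*), -0.30 to 0.28 (*Cpa3*), -0.099 to 0.42 (*Ms4a2*), -0.11 to 0.36 (*Hdc*), -0.20 to 0.50 (*Mrgprb1*) and -0.11 to 0.36 (*Mrgprb2*). For the difference of responses they ran from -0.22 to 0.65 (*Tpsab1*), -0.37 to 0.31 (*Fcer1a*), -0.36 to 0.17 (*Ms4a2*) and -0.098 to 0.41 (*Hdc*). None of the values in this list that crossed 0 when a mouse was left out was called with all mice.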
